A study of Homo sapiens with 44 samples.

Results

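The 8 genes described here are MESP1, MESP2, PDGFRA, ETV2, SMARCD3, FOXC1, FOXC2 and FOXF1, which are known from the mesoderm that gives rise to the heart and vessels. They were chosen by name from 60499 Ensembl gene identifiers, and all 8 passed the filter on low counts that left 22955 genes for testing. Their RNA was followed in the established human embryonic stem cell line H1 over a differentiation course towards cardiac cells, with most weight on days 1 to 9. Every group comes from this 1 line, carries no genetic change and differs from the others by time, coating and medium only. The coating was the laminin LN-521 for the pluripotent cells, and LN-521 mixed with LN-221 from day 0 on. Day 0 wells were confluent and in Nutristem medium. CHIR99021, which inhibits the kinase GSK3 and so activates Wnt signalling, was given at day 0, and the wells of days 1 and 3 were in insulin-free medium with it. IWP2, which blocks Wnt secretion, was given at day 3, and the day 5 wells carried it. Wells of days 7 and 9 were in insulin-free medium alone, and those of days 11, 14, 20, 30 and 90 in medium with the complete supplement. Of the 44 wells, 20 came from days 5, 7, 9 and 11, with 5 a day, and the remaining 8 groups had 3 wells apiece.

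In the embryo, cells that leave the primitive streak towards the heart switch on MESP1 for a short time. MESP1 is a basic helix-loop-helix transcription factor at the head of cardiovascular mesoderm, and MESP2 is its neighbour in the genome and is best known for setting segment borders in the presomitic mesoderm that forms the spine. PDGFRA, a receptor tyrosine kinase for platelet-derived growth factors, is a surface marker of cardiac and paraxial mesoderm and later of fibroblast-like cells. ETV2 is an ETS factor that starts the blood vessel and blood programmes. SMARCD3, also called BAF60C, is a subunit of the BAF chromatin remodelling complex that is used in the heart. FOXC1 and FOXC2 are forkhead factors of paraxial and cardiac outflow mesoderm, and FOXF1 is a forkhead factor of lateral and splanchnic mesoderm, the layer that wraps the gut and feeds the second heart field.

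Total estimated counts ran from 6937136 to 33498022 per library, and from 21139494 to 31040870 in the libraries of days 0 to 9. Levels are given as CPM, a count relative to the library total after scaling for library composition, and a floor of 3 counts corresponds to 0.0919 to 0.41 CPM. The 7 endoderm markers summed to 125 to 152 CPM at day 3 and 497 to 6200 CPM at day 9. At day 11 wells 1 and 2 stood apart, with 4570 and 8670 CPM of endoderm markers against 164 to 180 CPM in the other 3 wells. They held 5550 to 8460 CPM of 6 cardiomyocyte markers, where the other 3 held 19900 to 20800 CPM. Wells 1 and 2 also had the lowest RNA integrity numbers of that day, 8.6 and 8.0. Their totals, 18014203 and 19060126, were the lowest too, and the part of depth and RNA quality was not tested. Labels name the wells as biological replicates of 1 line, so p-values measure the spread between wells of this line. In bulk RNA fewer cells of a type and less RNA per cell cannot be told apart.

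MESP1 and MESP2 lie 9280 bases apart on chromosome 15 (GRCh38, GENCODE 29) and are read away from each other, MESP1 at 89748661 to 89751310 on the minus strand and MESP2 at 89760591 to 89778754 on the plus strand. That distance rests on the MESP2 start of GENCODE; the RefSeq start used for the sequence given further on lies inside this gene, nearer its end, and the distance from there is larger. FOXF1 (86510527 to 86515418) and FOXC2 (86566829 to 86569728) share chromosome 16 and the plus strand, with 51410 bases between them. The long non-coding RNA gene FENDRR starts 1427 bases from FOXF1 on the other strand, and FOXL1 follows FOXC2 after 6639 bases. FOXC1 lies on chromosome 6 at 1609972 to 1613897, and the forkhead genes FOXF2 and FOXQ1 lie on the same arm, with 214368 bases between FOXF2 and FOXC1 and 74827 bases between FOXQ1 and FOXF2. PDGFRA lies on chromosome 4 at 54229097 to 54298247, ETV2 on chromosome 19 at 35641745 to 35644871, both on the plus strand, and SMARCD3 on chromosome 7 at 151238764 to 151277896 on the minus strand.

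**Figure D1:**
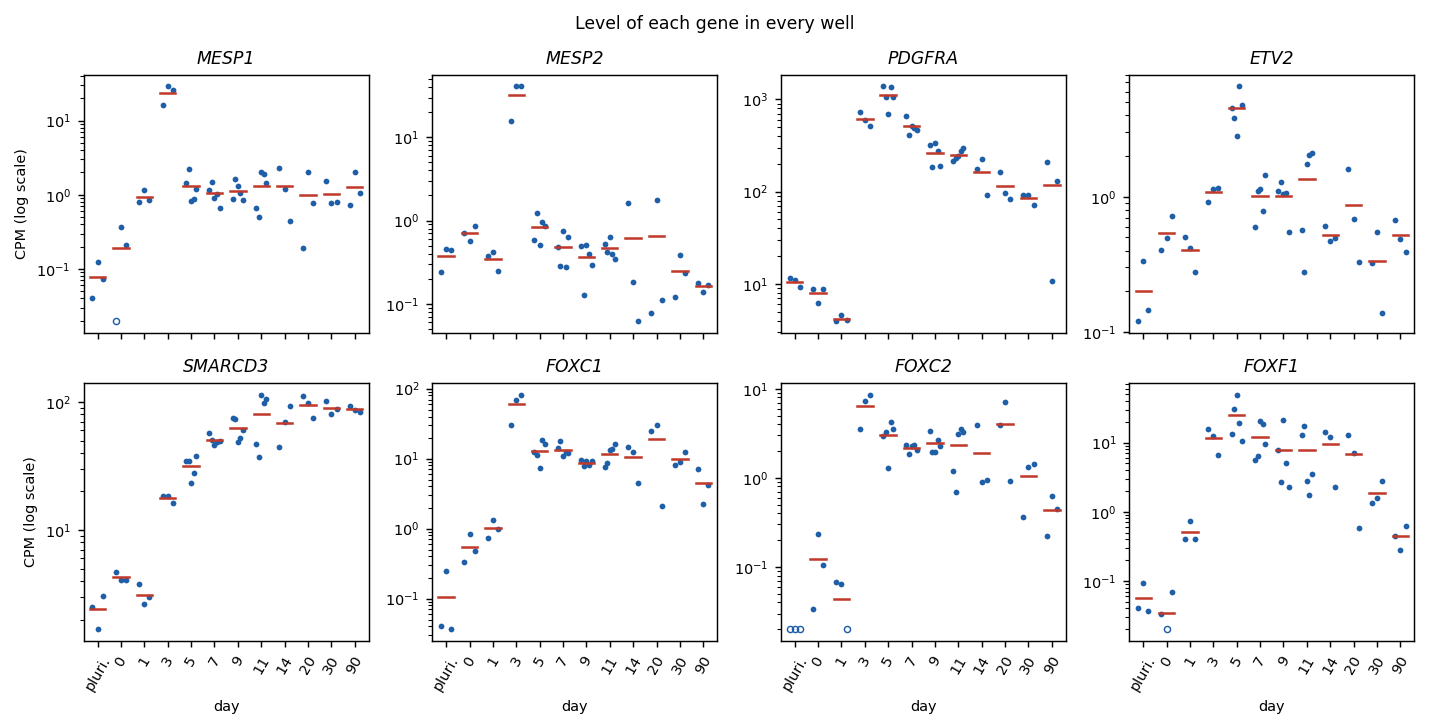
Level of each of the 8 genes in every well, in CPM on a log scale, for pluripotent cells and days 0 to 90. Each point is 1 well, open circles at the foot are wells with 0 counts, and red bars are group means. MESP1 and MESP2 stand out at day 3 alone, at 15.7 CPM or more in all 3 wells, while PDGFRA stays above its day 0 level from day 3 on and SMARCD3 climbs to a group mean of 94.9 CPM at day 20.

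The course of the genes fell into 3 shapes. By mean CPM, 4 genes were highest at day 3 (MESP1, MESP2, FOXC1 and FOXC2), 3 at day 5 (PDGFRA, ETV2 and FOXF1) and 1 at day 20 (SMARCD3). After the highest day the levels did not return to the same share of it. At day 7 MESP1 and MESP2 were at 4.37% and 1.48% of their day 3 means, FOXC1 and FOXC2 at 22.3% and 33.7%. PDGFRA, ETV2 and FOXF1 at day 7 were at 45.5%, 22.7% and 49.0% of their day 5 means. At day 90 PDGFRA still had 10.5% of its highest mean and FOXF1 1.81%, while SMARCD3 had 92.4%.

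**Figure D2:**
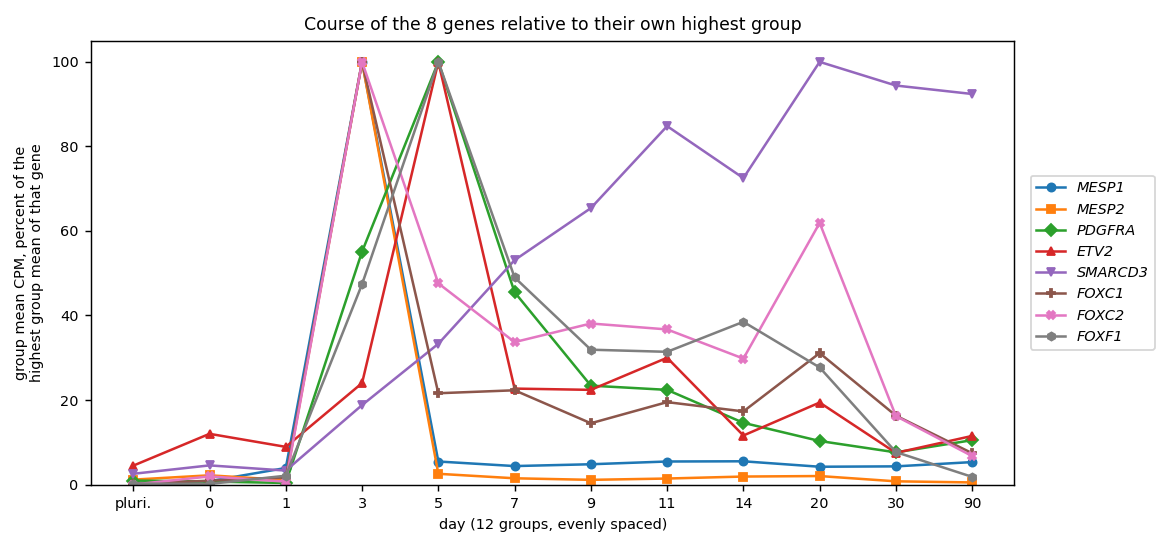
Mean CPM of each gene in the 12 groups as a percentage of that gene's own highest group mean, with the groups evenly spaced on the horizontal axis. By mean, the 4 genes with a day 3 peak fall and the 3 with a day 5 peak rise between days 3 and 5. The changes of PDGFRA, FOXC2 and FOXF1 in that step were not called. SMARCD3 is the 1 gene whose mean is higher at each of days 3, 5, 7 and 9 than at the one before.

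The steps were compared in 1 edgeR quasi-likelihood fit of 22955 genes. A call needed a log2 fold change of at least 1 in either direction together with an adjusted p (Benjamini-Hochberg) under 0.05. From pluripotent cells to day 0 edgeR called none of the 8 genes, where it called 2.91% of all genes and 2.73% as higher. At an unadjusted p under 0.05 there were 4 (ETV2, SMARCD3, FOXC1 and FOXC2), DESeq2 called 2 of these (FOXC1 and FOXC2) and limma on TPM 0. From day 0 to day 1, across the first day of GSK3 inhibition, MESP1 alone of the 8 genes was higher, where 3.86% of all genes were called higher, 9.66% lower and 13.5% in either direction. From day 1 to day 3 all 8 genes were higher, where 11% of all genes were called higher, 6.8% lower and 17.8% in either direction. The median log2 change was 5.27 over the 8 genes against 0.07 over all genes. The call of ETV2 in that step was near the threshold (edgeR adjusted p = 0.045). It was lost in each fit that left out 1 well of either day. From day 3 to day 5, the step that spans the addition of IWP2, ETV2 was higher and MESP1, MESP2 and FOXC1 were lower. Of all genes 5.75% were called higher and 4.34% lower in that step, 10.1% together.

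From day 5 to day 7 PDGFRA and ETV2 were lower, where 0.906% of all genes were called lower, 2.74% higher and 3.65% in either direction. From day 7 to day 9 edgeR called none of the 8, where 1.28% of all genes were called. PDGFRA was the 1 gene with an unadjusted p under 0.05 in that step, and DESeq2 and limma called 0. Over the whole interval, day 9 stood above day 0 for 6 of the 8 genes, where 17.1% of all genes were called higher and 31.7% in either direction. The exceptions were MESP2 and ETV2. From day 9 to day 90 PDGFRA, FOXC2 and FOXF1 were lower, where 12% of all genes were called lower.

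The wells of the groups did not overlap in CPM for 6 of the 8 genes between pluripotent cells and day 0 (47.8% of all genes) and for 5 between days 0 and 1 (55.3%). They did not overlap for all 8 between days 1 and 3 (57%), for 5 between days 3 and 5 (34.3%) and for 3 between days 5 and 7 (11.5%). Between days 7 and 9 this held for 2 (7.34%), between days 0 and 9 for 7 (56%) and between days 9 and 90 for 4 (36.7%). For days 0 and 1 the share of the 8 genes was thus near that of all genes. Comparisons that follow each other share a group of wells, so the high day 3 wells enter both the rise and the fall. In each lane of the sequencer that held wells of both groups, all 24 calls kept their direction, and a lane term in the fit removed 0 of them.

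**Figure D3:**
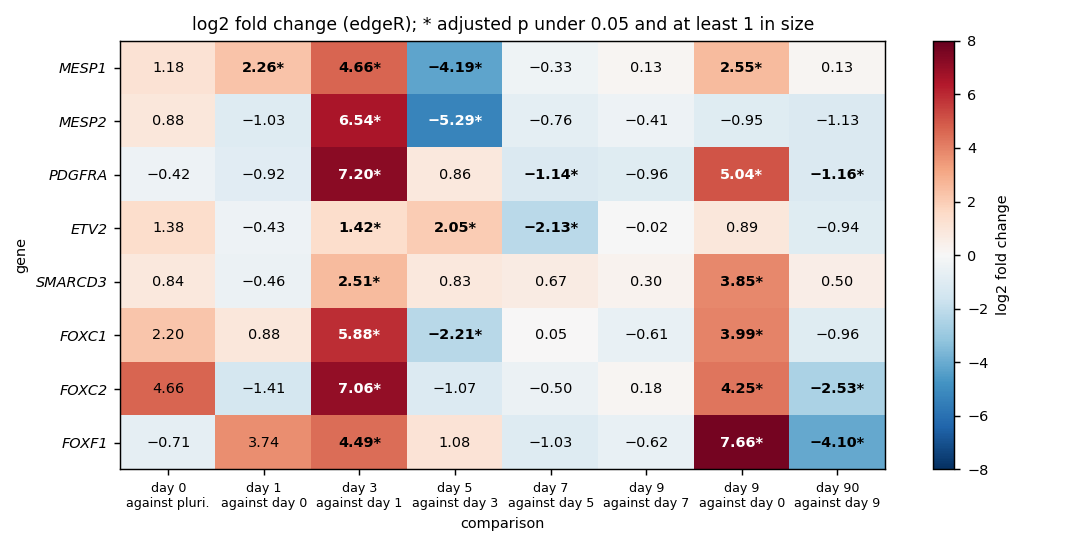
Log2 fold change of each gene in the 8 comparisons, with red for higher and blue for lower in the group named first. A star marks an adjusted p under 0.05 with a change of at least 1 in size. The day 3 against day 1 column is the 1 column with all 8 genes starred, and its ETV2 star was lost in each fit that left out 1 well of either day. The value of FOXC2 for day 0 rests on pluripotent wells with 0 counts and is no bound.

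MESP1 appeared in 2 steps. Its levels were 0.0402, 0.123 and 0.0729 CPM in the pluripotent wells, 0, 0.366 and 0.207 CPM at day 0 and 0.809, 1.16 and 0.841 CPM at day 1. Day 1 wells were all above the day 0 wells, 4.9-fold by the means. The log2 fold change was 2.26 ± 0.68 (SE) with an edgeR adjusted p of 0.014. The counts behind it are small, 87 over the 3 day 1 wells against 17 over the 3 day 0 wells. Without well 1 of day 0, which had 0 counts, the log2 change was 1.69 with an edgeR adjusted p of 0.088. On log2(TPM + 1) it was 0.30 with a limma adjusted p of 0.58, but means of 0.207 and 0.483 TPM cannot differ by 1 on that scale. On log2(TPM + 0.1) it was 1.13 with a limma adjusted p of 0.28.

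Day 3 wells then held 16.4, 29 and 26.1 CPM of MESP1, a mean of 23.8 ± 6.61 (SD, n = 3) and 25.5-fold the day 1 mean. The rise was 4.66 ± 0.64 on the log2 scale (edgeR adjusted p = 4.8e-07). At day 5 the 5 wells were back at 1.43, 2.2, 0.813, 0.869 and 1.19 CPM, 18.3-fold under day 3, and MESP1 fell by 4.19 ± 0.51 on the log2 scale (edgeR adjusted p = 1.1e-07). No well of days 1 or 5 reached the lowest day 3 well. After day 5 the group means stayed between 1.00 and 1.31 CPM up to day 90, and the ranges of neighbouring groups in the order of levels overlapped from day 14, the second highest, down to day 1. MESP1 stood 5.99-fold higher at day 9 than at day 0 (log2 2.55 ± 0.64, edgeR adjusted p = 0.0012). The log2 change was 1.97 without well 1 of day 0 and 3.41 without well 2, and on log2(TPM + 1) the call was lost (0.5, limma adjusted p = 0.06). Its day 9 mean of 0.76 TPM is too low for a change of 1 on that scale, and the call held on log2(TPM + 0.1). At these levels a day 9 well held about as much MESP1 as a day 1 well, 0.846 to 1.63 against 0.809 to 1.16 CPM.

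MESP2 was low before day 3, with 0.705, 0.566 and 0.863 CPM at day 0 and 0.371, 0.418 and 0.249 CPM at day 1. The day 1 wells were all under the day 0 wells, but the log2 change of -1.03 ± 0.68 was not called (edgeR adjusted p = 0.31). At day 3 the wells held 15.7, 41.1 and 41.1 CPM, 94.4-fold the day 1 mean, a rise of 6.54 ± 0.75 on the log2 scale (edgeR adjusted p = 1.2e-08). Day 5 wells held 0.581, 1.24, 0.514, 0.956 and 0.855 CPM, and MESP2 fell by 5.29 ± 0.56 on the log2 scale (edgeR adjusted p = 6e-09). Unlike MESP1, MESP2 ended at 0.362 ± 0.156 CPM at day 9 (SD, n = 5), under its day 0 mean of 0.711 ± 0.149 (SD, n = 3), with a log2 change of -0.95 that was not called (edgeR adjusted p = 0.19). Day 3 was the only group whose MESP2 range stood clear of the next in the order of levels. A pair of later wells was high within its group, well 2 of day 14 at 1.61 CPM and well 2 of day 20 at 1.78 CPM, where the other wells of those days held 0.0624 to 0.18 CPM. These values rest on 16 and 13 counts in the 2 shallowest libraries of the series, with totals of 8679308 and 6937136 and the lowest RNA integrity numbers of their days, 7.4 and 8.0. The part of depth and RNA quality in them was not tested. The estimated counts of both MESP genes were whole numbers in all 44 libraries.

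The 3 day 3 wells differed in several of the genes. Well 1 was the lowest of the 3 for MESP1, MESP2, FOXC1 (30.4 against 69.3 and 82 CPM) and FOXC2 (3.5 against 7.22 and 8.57 CPM). It was the highest for PDGFRA and FOXF1. TBX6, a T-box factor of presomitic mesoderm, was also lowest in well 1, at 21.7 CPM against 45.1 and 32.9 CPM. The same well had the lowest sum of the 13 primitive streak genes, 303 against 435 and 480 CPM, and the highest sum of the cardiomyocyte markers, 113 against 63.7 and 60.7 CPM. With well 1 left out all calls of the 8 genes for day 3 held but 1, the rise of ETV2. The part of these marker levels in the means was not tested.

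For MESP2, ETV2 and PDGFRA the 250 bases before an annotated start are shown, since these genes rose together at day 3 and parted by day 5. The sequences are RefSeq's (GRCh38.p14), which gave windows for 5 of the 8 genes. All 3 are read on the plus strand, 5′ to 3′, and capitals mark every match to a searched motif on either strand.
MESP2, chr15:89776082-89776331: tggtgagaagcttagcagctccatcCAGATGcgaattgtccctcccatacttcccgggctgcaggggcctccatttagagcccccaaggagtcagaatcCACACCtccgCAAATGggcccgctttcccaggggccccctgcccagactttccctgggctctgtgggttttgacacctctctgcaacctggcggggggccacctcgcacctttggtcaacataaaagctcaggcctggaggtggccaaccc
ETV2, chr19:35641495-35641744: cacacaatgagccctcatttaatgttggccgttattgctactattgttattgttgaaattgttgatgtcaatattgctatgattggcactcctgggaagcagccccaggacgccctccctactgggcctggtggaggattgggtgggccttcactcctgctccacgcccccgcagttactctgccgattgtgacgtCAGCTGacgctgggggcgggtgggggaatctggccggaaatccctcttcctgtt
PDGFRA, downstream start, chr4:54233710-54233959: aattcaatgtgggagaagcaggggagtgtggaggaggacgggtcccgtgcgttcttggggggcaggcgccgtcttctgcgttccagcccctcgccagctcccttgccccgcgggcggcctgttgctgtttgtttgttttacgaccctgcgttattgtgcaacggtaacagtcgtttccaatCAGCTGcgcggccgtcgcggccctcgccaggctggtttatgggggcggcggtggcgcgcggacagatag

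The motifs searched were GGTGTG for T-box factors, CTTTGA for TCF/LEF, GTAAACA for forkhead factors and CANNTG, the E-box read by basic helix-loop-helix factors. MESP2 held 1 T-box match on the minus strand, 151 bases before the start, and E-boxes 225 and 141 bases before it. Of 35116 promoters of the same length 14.2% held the T-box letters and 61.8% an E-box. ETV2 and the downstream PDGFRA start each held 1 E-box, 54 and 69 bases before the start, both of the form CAGCTG. The upstream PDGFRA start, not shown, held E-boxes of other forms, CAGTTG and CAAATG, 244 and 67 bases before it. The first bases after the start were found in a GENCODE transcript of the gene for ETV2 and the upstream PDGFRA start. For MESP2 and the downstream PDGFRA start they were not. No TCF/LEF match, which 11.2% of the promoters held, and no forkhead match, which 3.0% held, was found in the windows of the 5 genes. The matches are letters in a window and were not tied to any change in RNA.

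PDGFRA had the highest log2 fold change of the 8 genes from day 1 to day 3, next to FOXC2. It was present before differentiation, at 11.6, 10.9 and 9.22 CPM in pluripotent wells and 8.86, 6.19 and 8.74 CPM at day 0. Day 1 was its lowest group, at 3.98, 4.56 and 4.05 CPM, all under the day 0 wells. That difference of -0.92 ± 0.47 on the log2 scale was not called (edgeR adjusted p = 0.17). Day 3 wells held 738, 602 and 512 CPM, 147-fold the day 1 mean, and the rise was 7.20 ± 0.58 on the log2 scale (edgeR adjusted p = 3.9e-12).

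Day 5 wells of PDGFRA ranged from 690 to 1390 CPM (1390, 1070, 690, 1370 and 1070), and they overlapped the day 3 wells through well 3. The day 5 mean of 1120 ± 286 CPM (SD, n = 5) was 1.81-fold the day 3 mean, with an edgeR adjusted p of 0.15. The wells of day 7 held 658, 410, 519, 492 and 470 CPM, all under the lowest day 5 well. PDGFRA fell by 1.14 ± 0.34 on the log2 scale (edgeR adjusted p = 0.04). This call was near its threshold: it was lost in 8 of the 10 fits that left out 1 well of either day, with log2 changes from -1.27 to -1.05, and with well numbers as a block (adjusted p = 0.061). At day 9 the 5 wells held 323, 185, 333, 278 and 191 CPM, again all under the day 7 wells. The log2 change of -0.96 ± 0.34 was not called (edgeR adjusted p = 0.16). The edgeR fit of all groups did not pair wells by number. Against day 0 the day 9 level was 33-fold higher, a rise of 5.04 ± 0.51 on the log2 scale (edgeR adjusted p = 2.1e-10).

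Later PDGFRA went from 251 ± 33 CPM at day 11 (SD, n = 5) to 85.3 ± 11.6 CPM at day 30 (SD, n = 3), and every group from day 3 on stood above pluripotent cells in mean. At day 90 the wells were far apart, with 212, 10.7 and 129 CPM in wells 2, 4 and 5. PDGFRB followed the same wells, with 68.8, 3.97 and 44.8 CPM, and so did the sum of 7 fibroblast and epicardial markers, with 2140, 446 and 1250 CPM. Cardiomyocyte markers went the other way, with 14600, 19200 and 15600 CPM. From day 9 to day 90 PDGFRA fell by 1.16 ± 0.41 on the log2 scale (edgeR adjusted p = 0.023). The wells of the 2 days overlapped, with 185 to 333 CPM at day 9 and 10.7 to 212 CPM at day 90. In the edgeR fit of the compared groups alone the call was lost (log2 -1.16, adjusted p = 0.21). It was also lost without well 4 of day 90 (log2 -0.62, adjusted p = 0.094) and without well 5 (log2 -1.23, adjusted p = 0.052), and without well 2 the change was -1.91. The part of the fibroblast share in it was not tested.

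The reads of PDGFRA were partly shared with another gene. Its estimated counts had decimals in 41 libraries, and in all 41 they added up to a whole number with those of FIP1L1 (tolerance 0.011), which held 630 to 2751 counts per library. The annotation also has a gene, AC058822.1, at 53377839 to 54295272 on the same strand that overlaps part of each, and it was not analysed here. FIP1L1 itself stayed between 45.1 and 120 CPM in all wells.

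The partners of PDGFRA were taken as a list of 5 genes, its sister receptor and the ligands. PDGFRB, the receptor of mural and stromal cells, rose with it at day 3, to 168, 155 and 102 CPM from 5.63, 2.06 and 6.41 CPM at day 1 (log2 4.91), but then fell at day 5 by 1.71 on the log2 scale, to 39 to 48.2 CPM. The ligand genes PDGFA, PDGFC and PDGFD fell at day 3 by 1.14, 1.26 and 1.19 on the log2 scale, so that 1 list member was higher and 3 were lower in the step in which PDGFRA rose. At day 5 PDGFA (log2 1.16) and PDGFD (log2 1.29) rose. By day 90 PDGFD had reached 321 CPM from 21.0 CPM at day 9, a rise of 3.94 on the log2 scale, and PDGFC rose by 2.05. In that step 2 of the 5 genes were higher and 1 was lower, with a median log2 change of -0.28. Among all genes 11.9% were called higher and 12% lower.

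ETV2 was the least abundant of the 8 genes at day 3 per transcript length, at 0.883 ± 0.252 TPM (SD, n = 3), and it peaked at day 5. Day 1 wells held 0.505, 0.418 and 0.28 CPM, day 3 wells 0.914, 1.15 and 1.17 CPM and day 5 wells 4.53, 3.79, 2.83, 6.56 and 4.8 CPM. The 3 days did not overlap. From day 1 to day 3 ETV2 rose by 1.42 ± 0.54 on the log2 scale (edgeR adjusted p = 0.045). That call was lost in each of the 6 fits that left out 1 well of either day, with edgeR adjusted p from 0.056 to 0.16. It was also lost without a filter on low counts (edgeR adjusted p = 0.1) and on log2(TPM + 0.1) (limma adjusted p = 0.057). The rise to day 5 was 2.05 ± 0.49 on the log2 scale, 4.17-fold (edgeR adjusted p = 0.0022). At day 7 ETV2 fell by 2.13 ± 0.40 on the log2 scale (edgeR adjusted p = 0.00036), to 0.596, 1.11, 1.15, 0.786 and 1.46 CPM. Later groups were near the day 7 level or under it, apart from wells 5, 6 and 7 of day 11 at 1.76, 2.05 and 2.11 CPM and well 1 of day 20 at 1.61 CPM. Wells 1 and 2 of day 11 held 0.572 and 0.277 CPM.

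Around ETV2, 15 haematoendothelial genes were followed. At day 3 6 were higher and 1 lower, where 11% of all genes were called higher and 6.8% lower. At day 5 10 were higher and 1 lower, where 5.75% of all genes were called higher and 4.34% lower. The rises at day 5 included TAL1, a blood stem cell factor (log2 6.86, from 0.259 to 30.3 CPM), SOX7 (log2 4.57) and FLI1, an ETS factor of endothelium (log2 4.45). VWF, which had risen at day 3 by 6.27, fell by 2.25. ETV2 fell at day 7, where 0 of the 15 genes and 0.906% of all genes were called lower. PECAM1, CDH5 and TIE1, genes of formed endothelium, rose by 2.02, 1.69 and 1.53, where 2.74% of all genes were called higher. All 15 genes were lower at day 90 than at day 9, with a median log2 change of -3.74 against -0.02 over all genes.

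SMARCD3 rose at day 3 and was not called in the single steps that followed, yet its mean was higher in each group up to day 11. Its wells held 3.77, 2.63 and 2.99 CPM at day 1 and 18.6, 18.5 and 16.4 CPM at day 3, a rise of 2.51 ± 0.30 on the log2 scale (edgeR adjusted p = 3.7e-08). Day 5 wells held 34.3, 34.8, 23.1, 27.8 and 38.1 CPM, all above day 3, and the change of 0.83 ± 0.26 had an edgeR adjusted p of 0.021 but was under the fold threshold. Day 7 wells, at 46.4 to 56.8 CPM, did not overlap day 5 (log2 0.67, adjusted p = 0.057), and day 9 wells, at 48.9 to 75.3 CPM, overlapped day 7. Day 9 stood 14.4-fold above day 0, a rise of 3.85 ± 0.30 on the log2 scale (edgeR adjusted p = 4.1e-13). In day 11 wells 1 and 2 SMARCD3 was 46.6 and 37.5 CPM against 98 to 114 CPM in the other 3. Those wells had the highest endoderm marker sums, the lowest totals and the lowest RNA integrity numbers of that day. The part of these was not tested. The gene CHPF2 lies across SMARCD3 on the other strand, and whether counting used the strand is not given in the sources used here.

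Of 21 other BAF subunits, 1 was called higher and 1 lower at day 3, where 11% of all genes were called higher and 6.8% lower. The higher was DPF3, a reader subunit known from heart and muscle (log2 3.83). The lower was SMARCA2, the ATPase paralogue of SMARCA4 (fell by 3.84). Both then rose at day 5, DPF3 by 2.53 and SMARCA2 by 3.14. In that step 2 of the 21 were higher and 1 lower, where 5.75% of all genes were called higher and 4.34% lower. SMARCA2 went from 91.9 CPM at day 1 to 6.4 CPM at day 3 and 56.4 CPM at day 5, a dip in the group where MESP1 peaked. The paralogues of SMARCD3, SMARCD1 and SMARCD2, were at 119 and 95 CPM at day 1 and 122 and 106 CPM at day 3. They were lower at day 90 than at day 9, by 1.44 and 1.16 on the log2 scale. Of the 21 subunits 4 were called lower between those days, where 12% of all genes were.

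FOXC1 and FOXC2 shared the day 3 peak of the MESP genes but kept a larger share of it. FOXC1 was at 0.741, 1.32 and 0.996 CPM at day 1 and 30.4, 69.3 and 82 CPM at day 3, 59.4-fold by the means, and rose by 5.88 ± 0.63 on the log2 scale (edgeR adjusted p = 2.6e-09). The day 5 wells held 12.3, 11.2, 7.36, 18.2 and 16.2 CPM, all under day 3, and FOXC1 fell by 2.21 ± 0.44 on the log2 scale (edgeR adjusted p = 0.00029). Day 7 wells, at 11 to 17.9 CPM, lay within the day 5 range and day 9 wells, at 7.83 to 9.63 CPM, lay under all day 7 wells without a call (log2 -0.61, adjusted p = 0.61). FOXC1 was 16-fold higher at day 9 than at day 0 (log2 3.99 ± 0.59, edgeR adjusted p = 5.3e-07). On log2(TPM + 1) that change was 0.92, under the fold threshold, and on log2(TPM + 0.1) the call held. At day 20 it was uneven, with 24.6 and 29.8 CPM in wells 1 and 2 and 2.12 CPM in well 3. Fibroblast and epicardial markers summed to 1570, 994 and 453 CPM in these wells, RNA integrity numbers were 8.2, 8.0 and 9.3, and well 2 was the shallowest library of the series. Their part in the difference was not tested.

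FOXC2 had 0 counts in all 3 pluripotent wells and 4 counts in all over the 3 day 1 wells. Day 3 wells held 3.5, 7.22 and 8.57 CPM, 509 counts in all. The ratio of day 3 to day 1 was 151-fold with a counting interval of 58.4 to 555 (95%, counting error only), and the edgeR log2 change was 7.06 ± 0.87 (adjusted p = 8.3e-08). Day 5 wells, at 2.98, 3.23, 1.28, 4.22 and 3.57 CPM, overlapped day 3 through its well 1, and the change was not called (log2 -1.07, edgeR adjusted p = 0.16). From there to day 20 every group mean lay between 1.92 and 3.98 CPM, but later wells were uneven, with 0.692 to 3.56 CPM at day 11. Wells 2, 3 and 6 of day 14 held 3.92, 0.898 and 0.936 CPM, and wells 1, 2 and 3 of day 20 held 3.91, 7.11 and 0.913 CPM. Well 2 of both days is a shallow library with a low RNA integrity number, and the part of this was not tested. At day 90 the wells held 0.224, 0.626 and 0.448 CPM, all under day 9, and FOXC2 fell by 2.53 ± 0.66 on the log2 scale (edgeR adjusted p = 0.0022). On log2(TPM + 1) that call was lost (-0.48, limma adjusted p = 0.11). FOXC2 averaged 0.494 TPM at day 9, too low for a change of 1 on that scale, and the call held on log2(TPM + 0.1). FOXC2-AS1 on the other strand had at most 2 counts in any library.

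FOXF1 came up with the others at day 3. Its wells held 1, 0 and 2 counts at day 0 and 12, 23 and 13 counts at day 1, or 0.404, 0.739 and 0.405 CPM. The day 1 to day 0 ratio was 15.3-fold with a counting interval of 4.93 to 76.8, and edgeR gave a log2 change of 3.74 ± 1.51 that was not called (adjusted p = 0.071). DESeq2 called it (log2 3.92, adjusted p = 0.0074), as did the fit of the compared groups alone (adjusted p = 0.0012) and the one with well numbers as a block (adjusted p = 0.028). At day 3 the wells held 15.9, 12.4 and 6.72 CPM, 22.7-fold the day 1 mean, a rise of 4.49 ± 0.95 on the log2 scale (edgeR adjusted p = 0.00036). At day 5 they held 13.5, 31, 49.3, 19 and 10.6 CPM and overlapped day 3, with a log2 change of 1.08 ± 0.72 (edgeR adjusted p = 0.35).

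From day 5 on, wells of the same day differed several-fold in FOXF1, and FENDRR, the non-coding RNA transcribed away from it, was uneven in the same wells. At day 5 FENDRR was at 0.658, 2.59, 8.05, 0.869 and 0.595 CPM, highest in well 3 as FOXF1 was. Day 7 wells 1, 10, 2, 3 and 4 held 5.61, 6.35, 20.3, 18.7 and 9.54 CPM of FOXF1, and wells 2 and 3 were the highest for FENDRR too, at 2.84 and 3.5 CPM. At day 11 wells 1 and 2 held 13.1 and 17.6 CPM of FOXF1 and 5.96 and 9.59 CPM of FENDRR, where wells 5, 6 and 7 held 1.74 to 3.49 CPM and 0.134 to 0.345 CPM. Endoderm markers were highest in these wells of days 5, 7 and 11. Their sum was 897 CPM in well 3 of day 5, against 274 to 495 CPM in the other 4, and 1090 and 997 CPM in wells 2 and 3 of day 7, against 294 to 704 CPM. Well 4 of day 5 had the lowest sum, 274 CPM, but held 19 CPM of FOXF1, where wells 1 and 5 held 13.5 and 10.6 CPM. The 7 fibroblast and epicardial markers were highest in the same wells, with 1090 CPM in well 3 of day 5 against 633 to 957 CPM, and 915 and 880 CPM in wells 2 and 3 of day 7 against 384 to 747 CPM. In wells 1 and 2 of day 11 they summed to 929 and 1710 CPM against 417 to 531 CPM. Wells 1, 2 and 3 of day 20 held 12.8, 7.11 and 0.584 CPM of FOXF1. Endoderm markers were highest there in the well with the least FOXF1, at 1760, 931 and 3930 CPM, and fibroblast and epicardial markers were at 1570, 994 and 453 CPM. None of the 7 endoderm markers was at 0 counts in any well of days 3 to 11. The part of either cell type in the FOXF1 level was not tested.

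**Figure D4:**
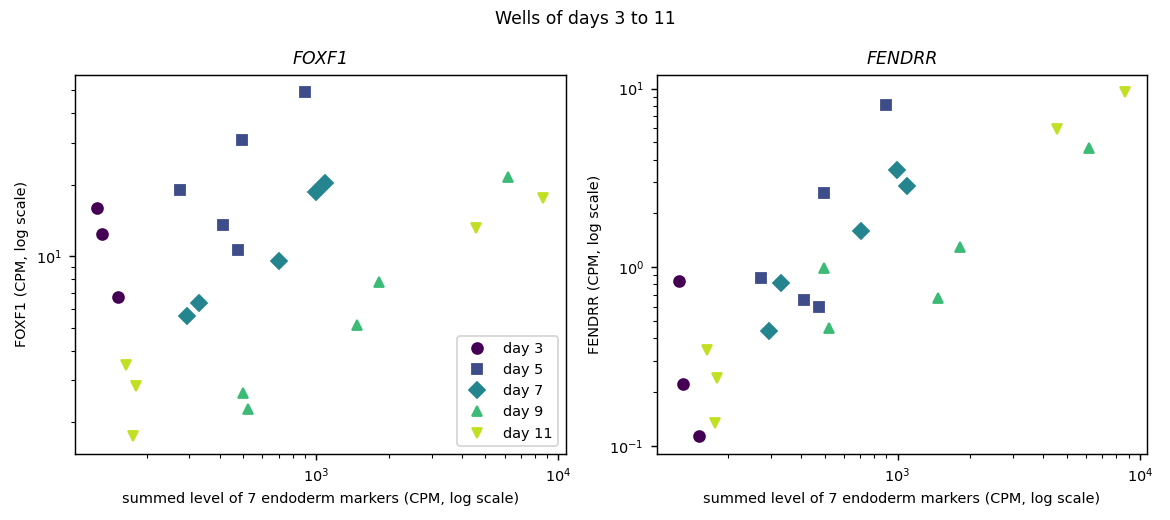
FOXF1 (left) and FENDRR (right) in each well of days 3 to 11 against the summed level of 7 endoderm markers, all in CPM on log scales, with 1 point per well and 1 symbol per day. Within days 7, 9 and 11 the wells with the highest marker sums are those with the highest FOXF1, such as wells 1 and 2 of day 11 at 13.1 and 17.6 CPM, while the 3 wells of day 3 run the other way. Within day 5 well 3 is highest for both, but well 4 has the lowest marker sum and not the lowest FOXF1.

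FOXF1 was higher at day 9 than at day 0 in every well, with a ratio of 242-fold and a counting interval of 82.5 to 1170, and a log2 change of 7.66 ± 1.28 (edgeR adjusted p = 4.9e-06). It was 6.84 without well 2 of day 9, the highest of its day at 21.5 CPM, and 8.5 without well 3 of day 0. At day 90 it was at 0.448, 0.278 and 0.616 CPM, 17.6-fold under day 9, and FOXF1 fell by 4.1 ± 0.96 on the log2 scale (edgeR adjusted p = 7e-04). Without well 2 of day 9 that change was -3.28. On log2(TPM + 1) neither call held, with 0.85 (limma adjusted p = 0.097) for day 9 over day 0 and -0.8 (0.13) for day 90 over day 9. FOXF1 averaged 0.914 TPM at day 9, and between means under 1 TPM this scale cannot show a log2 change of 1. Both calls held on log2(TPM + 0.1). FENDRR was not called in any single step from day 1 to day 9. FOXF2, the closest relative of FOXF1, rose at day 3 (log2 3.70) and held 9.86 to 19.3 CPM in the day 5 wells, a narrower range than the 10.6 to 49.3 CPM of FOXF1. FOXL1, next to FOXC2, rose at day 3 as well (log2 5.39), and FOXQ1, next to FOXF2, fell by 3.44 on the log2 scale (from 15, 9 and 19 counts in the day 1 wells to 0, 1 and 2). Together with FOXA2, an endoderm factor that rose by 2.09, these made 3 higher and 1 lower of the 6 tested genes of the list of forkhead neighbours and relatives.

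Per transcript length, in TPM, the order of the 8 genes changed from day to day. PDGFRA led at day 3 with 87.1 ± 3.28 TPM (SD, n = 3), above all wells of the other 7 genes. MESP2 and MESP1 followed with 21.9 ± 10.9 and 21.4 ± 8 TPM, which overlapped each other and FOXC1 at 11.3 ± 5.56 TPM. SMARCD3 was at 7.99 ± 0.269 TPM, FOXF1 at 2.36 ± 0.812 and FOXC2 at 1.95 ± 0.894. At day 5 PDGFRA was at 148 ± 61.0 TPM and SMARCD3 second at 11.6 ± 4.51 TPM, with the MESP genes last at 0.432 ± 0.136 (MESP2) and 0.416 ± 0.230 (MESP1) (SD, n = 5 each). By day 90 SMARCD3 was first, at 17.3 ± 3.51 TPM, and PDGFRA second, at 5.81 ± 4.74 TPM (SD, n = 3 each).

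The genes known to act before, beside and after these 8 were followed in lists. The shares of all genes called in each step, given above, are the background of all list counts. Of 13 genes of the primitive streak, 11 rose at day 1, when of the 8 genes only MESP1 was called. EVX1, TBXT and EOMES led them with log2 changes of 11.08, 9.87 and 9.64. At day 3 9 of the 13 fell and 2 rose. The 2 were LHX1 (log2 5.46) and TBX6 (log2 4.21, from 1.79 to 33.2 CPM), and at day 5 LHX1 fell by 4.25 and TBX6 fell by 3.76, with 12 of the 13 lower. EOMES, a T-box activator of MESP1 in the mouse embryo, was at 310 CPM at day 1, 102 CPM at day 3 and 1.92 CPM at day 5.

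Among 13 tested genes of presomitic and paraxial mesoderm, 7 rose at day 3 and 6 fell at day 5. FOXC1, FOXC2 and TBX6 count in this list too. The others that rose were RIPPLY2 (log2 4.38), a repressor that shuts off MESP2 and TBX6 activity in the embryo, and the Notch pathway genes DLL3 (3.74), LFNG (2.27) and DLL1 (1.94). MSGN1 had risen at day 1 (log2 7.51) and fell at day 5 by 6.28, but never exceeded a mean of 1.02 CPM. Its day 0 level was at or near 0, so the size of the day 1 value is no measured fold. MEOX1 and MEOX2, markers of formed somites, were not called at day 3 or day 5. They rose from day 9 to day 90, by 2.5 and 5.54, and PAX3 was at 0.181 CPM at day 9. Of the 13 genes these 2 were higher at day 90 and 5 were lower, with a median log2 change of -0.96. Among all genes 11.9% were called higher and 12% lower in that step.

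Of 17 cardiac and lateral mesoderm regulators, 13 rose and 0 fell at day 3, with a median log2 change of 4.06 against 0.07 over all genes. HAND1 led with 7.79, followed by SNAI2, an epithelial to mesenchymal transition factor, with 5.75 and GATA5 with 5.16. At day 5, as MESP1 fell, 9 rose, with MEF2C (log2 5.64), TBX5 (5.44) and ZFPM2 (4.44) the largest. WNT5A and BMP4, ligand genes that had risen at day 3, fell by 1.48 and 1.03. At day 7 3 rose, NKX2-5 (3.47), MYOCD (1.96) and MEF2C (1.18), and at day 9 edgeR called 0, with 16 of the 17 above day 0. KDR, also counted among the haematoendothelial genes, was at 180 CPM at day 0 and was the exception.

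**Figure D5:**
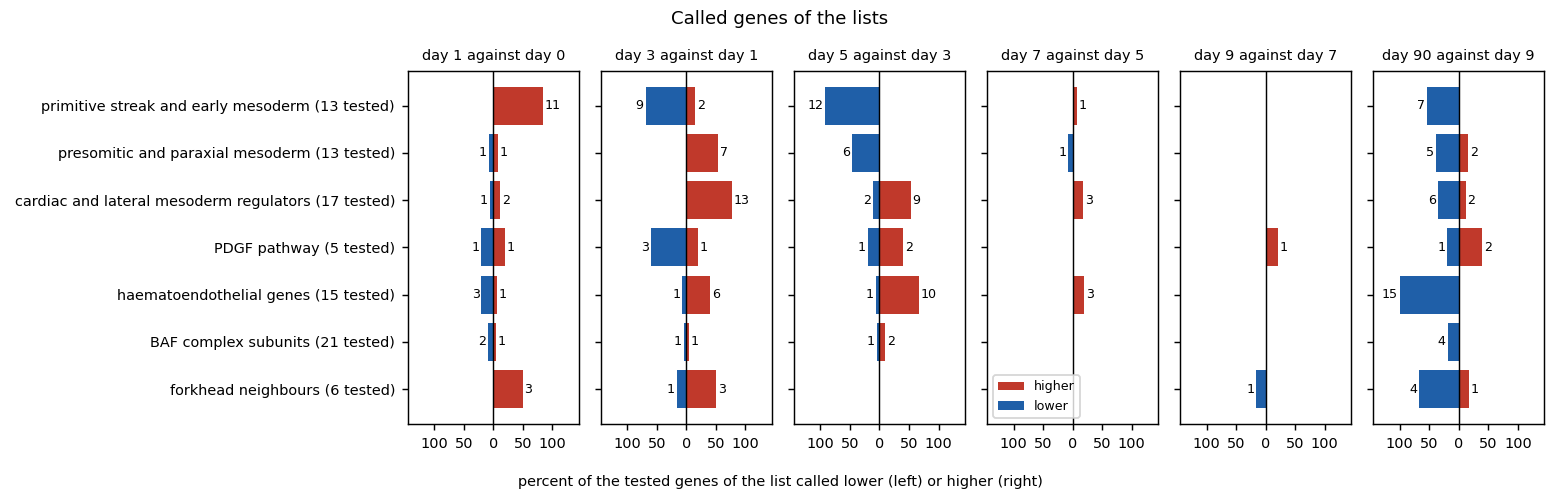
Share of the tested genes of 7 lists called higher (red, right) or lower (blue, left) in 6 comparisons, with the number of genes beside each bar. Primitive streak genes rise at day 1 and fall at days 3 and 5, the mesoderm lists rise at day 3, and the haematoendothelial genes rise at day 5, when 10 of 15 were higher, and are all 15 lower at day 90.

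Markers of other cells that the wells could hold changed over the same days. The 5 pluripotent cell markers summed to 2380 to 2510 CPM at day 3 and 460 to 532 CPM at day 9, and 4 of the 5 fell at day 3. Endoderm markers rose in 4 of 7 cases at day 3, with SOX17 up by 7.86 on the log2 scale. The fibroblast and epicardial markers rose in 1 of 7 cases at day 3 (TCF21, log2 6.64) and 4 of 7 at day 5. Of 6 cardiomyocyte markers 2 rose at day 3 and 6 at day 5, and of 4 neural markers OTX2 alone rose at day 3 (log2 1.30). Among all genes 11% were called higher and 6.8% lower at day 3, and 5.75% were called higher at day 5. Counts of 1 or 2 in such short lists were not tested against these shares. The part of these cells in the levels of the 8 genes was not tested.

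The genes whose course was most like each of the 8 were ranked over the 12 group means of log2(CPM + 1), among 12085 protein-coding genes with a group mean of at least 10 CPM. The coefficients are descriptions, since the 12 groups share libraries and one time course. Nearest to MESP1 were MOBP (Pearson r = 0.955), PCDH19 (0.942) and DRD2 (0.936), and nearest to MESP2 DRD2 (0.968), PCDH19 (0.968) and SAMD3 (0.967). All of these were highest at day 3, PCDH19 at 28.0 CPM and SAMD3 at 61.3 CPM. PDGFRA was nearest to CFC1, a Nodal co-receptor (0.987), CLSTN2 (0.987) and DNAH2 (0.982). SMARCD3 was nearest to the cardiac genes TBX20 (0.992) and RBM24 (0.991) and to SLIT3 (0.991). FOXC1 was nearest to KAZN (0.98), SNAI2 (0.974) and ITGA5 (0.969), FOXC2 to TENT2 (0.962) and FOXF1 to TMEM88 (0.984), GATA3 (0.984) and LIX1 (0.977). ETV2 had the loosest matches, PGA4 (0.914), KCNH1 (0.885) and GLUD2 (0.883). Among the 8 genes themselves the closest pairs were FOXC1 with FOXC2 (0.948), MESP1 with MESP2 (0.933) and PDGFRA with FOXF1 (0.929). MESP2 with SMARCD3 was the lowest, at -0.145.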

How the data were processed

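RNA was sequenced from 44 wells of H1 cells as stranded total RNA, paired-end. Per the submitters' processing notes, cutadapt, STAR 2.5.2b and RSEM 1.2.31 were used with build hg38; the annotation release and strand setting are not given in the sources used here. The authors deposited estimated counts per gene, of which 93.8% are whole numbers, and TPM, which are scaled for transcript length. The RNA integrity score, lane and batch of each library were deposited by the authors in a sample sheet. Symbols came from GENCODE 29, which named 56769 of 60499 identifiers, 3730 were not matched.

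Estimated counts were rounded and tested with edgeR 4.0.16 (R 4.3.3): filterByExpr left 22955 genes, scaling was by TMM, and the model held a mean for each of the 12 groups over the 44 libraries, with 8 contrasts. Calls needed a Benjamini-Hochberg adjusted p under 0.05 over all genes and a log2 fold change of at least 1. The SE is the log2 change divided by the square root of F. CPM use TMM-scaled totals. Ratios against a group with few counts carry exact 95% counting intervals. The libraries have no molecular identifiers, so these cover counting error only. The fit was also run on simulated counts with known changes at day 3 in genes of more than 1 CPM on average. That run does not speak for genes with few counts. Alternatives were limma 3.58.1 on log2(TPM + 1) and log2(TPM + 0.1), DESeq2 1.42.0, RLE scaling, other filters, lane, replicate block, the compared groups alone and leaving out each well.

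The 8 genes, the gene lists (primitive streak, presomitic, cardiac and lateral, PDGF, haematoendothelial, BAF, forkhead neighbours and 5 marker lists) and the comparisons were chosen with earlier results of these data known. Named list genes are up to 3 called genes with the largest rise and up to 3 with the largest fall per comparison, with at least 1 CPM in the higher group, and fixed neighbours and partners. Others (DLL1, DLL3, LFNG, PAX3, KDR, FIP1L1, MSGN1 at day 1, LHX1 at day 5 and the levels of SMARCD1 and SMARCD2) were chosen after their values were seen, as were the wells described. Deviations of same-numbered wells of days 7 and 9 (1, 10, 2, 3 and 4) correlated at 0.201, 0.714, 0.459, 0.111 and 0.469 over 15896 genes. On that basis their numbers were taken to pair them, though well 3 was closer to another number and wells 1 and 10 shared a lane. Days 5 and 7 gave 0.377, 0.163, 0.501 and -0.119 for wells 1, 2, 3 and 4, and pairing was not assumed for them. The edgeR fit behind the calls did not pair the wells of days 7 and 9. The block was a term for well number over all 44 libraries, and it changed no call of the 8 genes from day 7 to day 9. A fit paired for these days alone was not run.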

Additional observations from a re-analysis of the deposited data

Results flagged for a closer look

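FOXF1 in well 2 of day 9 was at 21.5 CPM, where the other 4 wells of that day held 2.28 to 7.81 CPM. The gap to the nearest well was 0.712 of the whole range, above the 95% critical value of 0.71 for 5 samples. It was the 1 such well among 32 sets of 5 wells examined, and chance alone gives about 1 in 20. The same well had the highest sum of endoderm markers of that day, 6200 CPM against 497 to 1810 CPM, and the highest FENDRR, 4.65 CPM. It also had the highest sum of fibroblast and epicardial markers, 1020 CPM against 429 to 618 CPM, and the lowest of cardiomyocyte markers, 7050 CPM against 12600 to 16400 CPM. The part of these cell types in this value was not tested.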

How the results depend on the processing

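Over the 64 log2 fold changes of the 8 genes (8 genes in 8 comparisons), 1072 alternative values were computed, of which 1007 kept direction and side of the threshold, 31 lost the call, 13 gained one and 21 changed sign. Of the 24 calls 13 held under every alternative run and 11 were lost in at least 1. All values that changed sign belonged to differences that were not called. FOXC1 from day 5 to day 7 was -0.13 on log2(TPM + 1), -0.16 on log2(TPM + 0.1) and -0.1 to 0.2 with 1 well left out, and MESP1 in that step 0.01 on log2(TPM + 0.1). ETV2 from day 7 to day 9 was 0 with RLE scaling and with DESeq2, 0.01 with a mean CPM of at least 1, 0.02 with the replicate block and -0.16 to 0.14 with 1 well left out, and MESP1 -0.02 to 0.29. From day 9 to day 90 MESP1 was 0 with lane as a term, -0.35 on log2(TPM + 1), -0.7 on log2(TPM + 0.1) and -0.36 to 0.42 with 1 well left out, and SMARCD3 was -0.03 on both TPM scales.

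The number of the 8 genes called from pluripotent to day 0 was 3 with only the compared groups and 2 with DESeq2. From day 0 to day 1 it was 2 with the replicate block and with DESeq2, 3 with only the compared groups, 0 on both TPM scales and 0 to 1 with 1 well left out. From day 5 to day 7 it was 1 with the replicate block and 1 to 2 with 1 well left out. On log2(TPM + 1) it was 2 for day 9 over day 0, and 1 for day 90 over day 9. Genes averaging under 1 TPM in both groups of a comparison could not reach a log2 change of 1 on that scale. Well numbers were taken to pair the wells of days 7 and 9 only. In the other comparisons pairing was not assumed, and the block changed no call of the 8 genes beyond those given.

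Over all genes, calls from pluripotent to day 0 went from 669 to 45 on log2(TPM + 1), 77 on log2(TPM + 0.1), 1771 with only the compared groups and 264 to 421 with 1 well left out. On log2(TPM + 1) and log2(TPM + 0.1) they went from 3102 to 974 and 1522 at day 1, from 4093 to 1717 and 2640 at day 3, from 838 to 260 and 446 at day 7, and from 293 to 28 and 68 at day 9. That last count was 532 with only the compared groups. On log2(TPM + 1) they went from 2317 to 1050 at day 5, from 7278 to 3739 between days 0 and 9, and from 5485 to 2787 between days 9 and 90. The cause was not tested. Against counts, log2(TPM + 1) moved the median of 15896 genes by 0.16 at day 1, -0.3 at day 5, -0.22 at day 7, -0.34 between days 0 and 9 and -0.47 between days 9 and 90, and RLE by at most 0.08. Depth limits FOXC2, FOXF1 and MESP1 at days 0 and 1, which held few counts.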
